A study of Mus musculus with 24 samples.

Results

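The genes described here were 8 genes of sterol synthesis and its control in epididymal white adipose tissue (eWAT): Hmgcs1, Idi1, Fdft1, Sqle, Lss, Cyp51, Srebf2 and Insig1. They were taken by symbol, as a fixed list, from the 16730 genes in the deposited tables, and all 8 were present there and passed the filter on low counts that left 15020 genes for testing. The animals were male littermates whose Lama4 gene (laminin α4, a basement membrane chain) carried loxP sites around exon 3 on both alleles, either without Cre (Lama4 fl/fl, the controls) or with adiponectin-Cre, which deletes the exon in adipocytes (Lama4 AKO). Each genotype was fed chow (diet 5015) or a 45% fat diet (HFD) for 20 weeks, with 6 mice in each of the 4 groups and 1 library per mouse. Mice were about 24 weeks old on chow and 26 weeks old on HFD, so diet and age cannot be told apart in the diet comparisons. Cre in this model acts in adipocytes of every fat depot, and the tissue also holds vessels, immune cells and stroma in which Lama4 is intact.

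Cells make cholesterol from acetyl-CoA through the mevalonate pathway, in which the isoprenoid units are joined to squalene, squalene is oxidized and cyclized to lanosterol, and lanosterol is trimmed to cholesterol. The transcription factor SREBP2, encoded by Srebf2, switches on nearly every gene of this route when sterol in the endoplasmic reticulum is low, and INSIG proteins hold its precursor there when sterol is plentiful. Adipocytes hold a large store of mostly unesterified cholesterol, and SREBP-1, encoded by Srebf1, drives fatty acid synthesis.

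In order along the pathway, Hmgcs1 (ENSMUSG00000093930, chr13:119690379-119708260 in GRCm38, + strand) encodes the cytosolic synthase that forms HMG-CoA, an early intermediate of the mevalonate arm. Idi1 (ENSMUSG00000058258, chr13:8885501-8892451, + strand) encodes the isomerase of the isoprenoid unit. Fdft1 (ENSMUSG00000021273, chr14:63145150-63179578, - strand) encodes squalene synthase, Sqle (ENSMUSG00000022351, chr15:59315077-59331192, + strand) squalene epoxidase, Lss (ENSMUSG00000033105, chr10:76531588-76557138, + strand) lanosterol synthase and Cyp51 (ENSMUSG00000001467, chr5:4081145-4104746, - strand) the lanosterol demethylase. Srebf2 (ENSMUSG00000022463, chr15:82147181-82205379, + strand) encodes SREBP2 and carries the microRNA gene Mir33 within it. Insig1 (ENSMUSG00000045294, chr5:28071363-28078662, + strand) encodes the sterol-dependent retention protein and is itself a target of SREBPs. All 8 are protein coding. The 3′ end of Fdft1 overlaps Ctsb on the opposite strand by 774 bases and that of Cyp51 overlaps Akap9 by 166 bases. Whether reads were counted by strand is not given in the sources used here, so values of Fdft1 and Cyp51 are uncertain to that extent.

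Promoter sequences from RefSeq (GRCm38.p6; 250 bases before to 50 after the transcription start) were found for 6 of the 8 genes, Hmgcs1, Idi1, Lss, Cyp51, Srebf2 and Insig1. The stretches upstream of the transcription start are shown for the 4 genes with the lowest p-values in the comparisons of diet and genotype, in lower case, 5′ to 3′, with capitals marking matches, on either strand and with up to 1 mismatch, to the SREBP consensus TCACNCCAC and exact matches to the CCAAT motif (ATTGG on the other strand), the binding motif of NF-Y.
Insig1 (chr5:28071162-28071362, + strand): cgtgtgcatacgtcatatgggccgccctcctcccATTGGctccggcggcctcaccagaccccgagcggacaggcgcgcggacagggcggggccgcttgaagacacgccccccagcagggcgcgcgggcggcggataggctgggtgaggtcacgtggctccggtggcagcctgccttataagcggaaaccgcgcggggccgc
Hmgcs1 (chr13:119690101-119690350, + strand): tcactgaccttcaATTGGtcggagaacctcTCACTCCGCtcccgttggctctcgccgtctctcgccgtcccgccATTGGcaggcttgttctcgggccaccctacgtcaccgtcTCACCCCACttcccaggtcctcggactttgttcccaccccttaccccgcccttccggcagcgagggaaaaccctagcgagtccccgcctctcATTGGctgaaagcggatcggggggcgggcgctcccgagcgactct
Srebf2 (chr15:82147019-82147180, + strand): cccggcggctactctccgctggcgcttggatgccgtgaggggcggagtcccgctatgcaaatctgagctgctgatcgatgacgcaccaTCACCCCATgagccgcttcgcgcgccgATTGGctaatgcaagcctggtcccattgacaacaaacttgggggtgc
Lss (chr10:76531355-76531587, + strand): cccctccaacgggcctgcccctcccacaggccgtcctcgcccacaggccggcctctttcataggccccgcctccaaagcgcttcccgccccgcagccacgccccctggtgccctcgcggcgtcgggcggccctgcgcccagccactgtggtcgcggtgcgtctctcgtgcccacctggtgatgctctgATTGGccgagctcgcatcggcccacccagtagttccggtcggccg

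Over the whole 300-base windows, searched on both strands, an exact match to TCACNCCAC was present in 1 of the 6 promoters, that of Hmgcs1, where it read TCACCCCAC and began at position -137 from the RefSeq start. The same letters were present in 402 of 32534 RefSeq promoter windows, 1.24%. With 1 mismatch allowed, 4 of the 6 promoters matched (Hmgcs1, Cyp51, Srebf2 and Insig1) against 24.3% of all windows. The Insig1 match began at position -9, outside the stretch shown. CCAAT was present in 6 of the 6 promoters against 37.4% of all windows, and the GC box GGGCGG in 6 of the 6 against 35.9%. The E-box CACGTG was present in 1, that of Insig1, against 7.17%. In these 6 windows no match to one motif overlapped a match to another. Of 19 other pathway genes with a window, 0 held the exact SREBP consensus, 6 held it with 1 mismatch allowed and 15 held CCAAT. These are matches of letters and not measured binding.

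Messenger RNA was counted with 3′-end libraries (QuantSeq), in which each transcript gives 1 fragment near its 3′ end, so levels in CPM (reads of a gene per 1000000 counted reads) were compared between genes without dividing by length. The libraries held between 5579590 and 18764516 counted reads. The study reported less Lama4 in eWAT of chow-fed Lama4 AKO mice by quantitative PCR. Reads near the 3′ end of Lama4 do not cover the deleted exon, so its level in these counts is no direct check of the deletion, and whether the deletion lowers the rest of the transcript was not tested here. Its log2 fold change between genotypes on chow was 0.11 (unadjusted p = 0.75, adjusted p = 0.98), and it ranged from 41.2 to 196.5 CPM in chow-fed Lama4 fl/fl, from 64.2 to 133.5 in chow-fed Lama4 AKO, from 32.4 to 135.3 in HFD-fed Lama4 fl/fl and from 36.4 to 92.5 in HFD-fed Lama4 AKO mice. The study set some libraries aside as outliers, which are not named in the sources used here. From earlier work on these counts they are taken to be HFD-fed Lama4 fl/fl replicates 3, 4 and 6, chow-fed Lama4 fl/fl replicate 3 and chow-fed Lama4 AKO replicate 5. This identity was inferred and is not in the labels, so results are given for all 24 libraries, and calls also for the 19 left without these 5. The defining adipocyte markers were abundant in every library. Summed over 8 genes (Adipoq, Plin1, Cidec, Lep, Retn, Pnpla2, Cfd, Fabp4), they ranged from 20100 to 51180 CPM in chow-fed Lama4 fl/fl, from 14770 to 40860 in chow-fed Lama4 AKO, from 9118 to 46550 in HFD-fed Lama4 fl/fl and from 8595 to 23970 in HFD-fed Lama4 AKO mice. The HFD-fed Lama4 fl/fl group was divided, with 39490 and 46550 CPM in replicates 6 and 4, 23560 in replicate 3 and 9118 to 14750 in the other 3 mice. Macrophage markers (8 genes, among them Adgre1, Cd68, Trem2 and Lyz2) ran the opposite way, from 2222 to 13100 CPM within that group. In whole tissue, fewer adipocytes and less RNA per adipocyte cannot be told apart.

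The 8 genes differed widely in level. Hmgcs1 was the most abundant, with a mean of 353.4 CPM over the 24 libraries (144.1 to 670.8), higher than 97.5% of the genes tested. Insig1 averaged 78.3 CPM (26.9 to 211.3) and Cyp51 59.7 (26.8 to 82.9). Below these came the regulator Srebf2 at 32.7 CPM (22.9 to 59.5).
Lss averaged 20.2 CPM (11.1 to 29.3), Sqle 12.7 (5.46 to 17.8) and Fdft1 9.65 (4.76 to 17.2). Idi1 was low, at 0.868 CPM (0.105 to 1.98), or 1 to 27 reads per library. In this order the ranges of each pair of neighbours overlapped, except those of Fdft1 and Idi1. The mean of Hmgcs1 was 5.92 times that of Cyp51, 27.9 times that of Sqle and 407 times that of Idi1. Differences in the efficiency of 3′ capture between genes are part of these ratios. A gene was called changed, by the study's own criteria, when its fold change reached 1.5, its unadjusted p was 0.001 or lower and the group with the higher level averaged 2 CPM or more. Idi1 did not reach 2 CPM in any group and so could not be called.

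**Figure D1:**
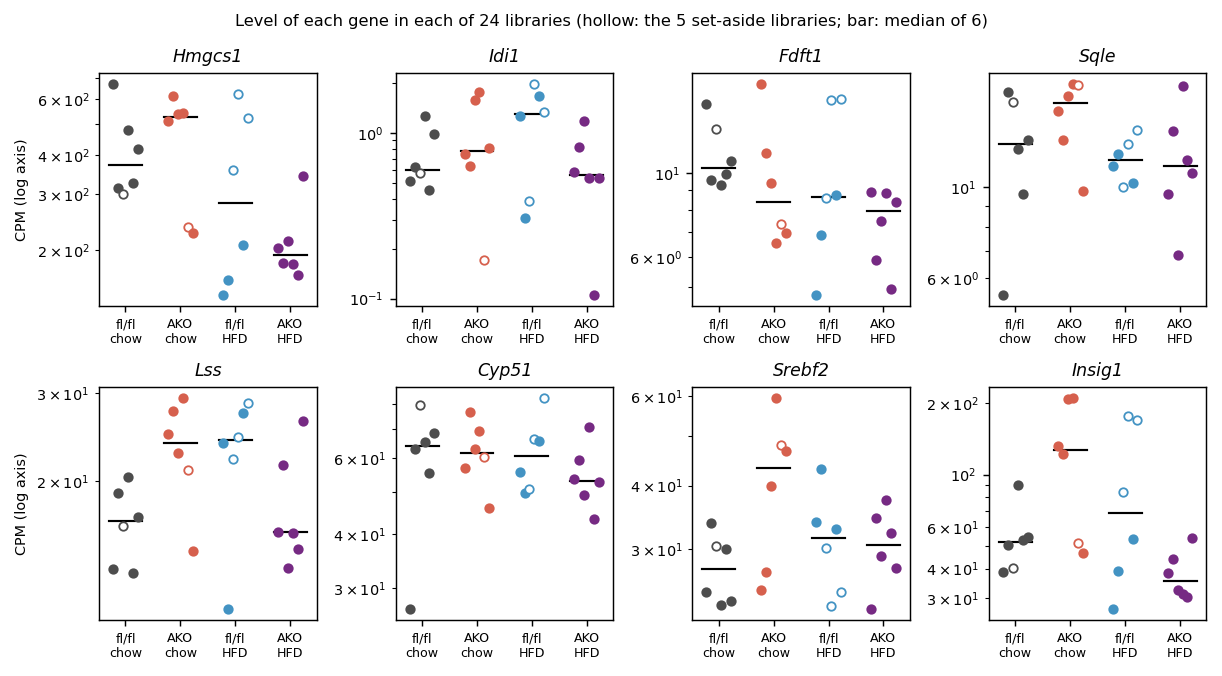
Levels of the 8 genes in CPM (log axes that differ between panels) in the 24 libraries, by genotype and diet; bars are medians of 6 mice and hollow points the 5 libraries inferred to have been set aside. Insig1 was above 120 CPM in 4 of 6 chow-fed Lama4 AKO mice and in 2 HFD-fed Lama4 fl/fl mice, both of them hollow points, and was at most 53.7 CPM in HFD-fed Lama4 AKO mice.

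The diet comparison within Lama4 AKO mice asked how eWAT lacking adipocyte LAMA4 responds to fat feeding. Insig1 was lower on HFD than on chow and was the only one of the 8 genes called. Hmgcs1 was next in size among the genes that could be called and had an adjusted p under 0.05, without meeting the p criterion of the call. The other 6 genes had log2 fold changes between -0.62 and -0.18, and none of them was called.
Insig1 ranged from 46.7 to 211.3 CPM with a median of 127.0 in chow-fed Lama4 AKO mice. In HFD-fed Lama4 AKO mice it ranged from 30.2 to 53.7 CPM with a median of 35.3. All HFD values but 1 lay below every chow value, so the ranges met only at replicate 6 of the HFD group. The fitted log2 fold change was -1.75 ± 0.42 (SE), with an unadjusted p of 0.000369 and an adjusted p of 0.0166 (edgeR quasi-likelihood test, Benjamini-Hochberg over all genes). Chow-fed Lama4 AKO mice were themselves divided. Replicates 5 and 6 had 51.2 and 46.7 CPM of Insig1, with 14770 and 15660 CPM of summed adipocyte markers, and the other 4 had 122.5 to 211.3 CPM of Insig1, with 24360 to 40860 CPM of the markers. The part of adipocyte content in the difference was not tested.
Hmgcs1 had a median of 525.3 CPM (226.4 to 613.4) in chow-fed and 193.0 CPM (166.9 to 342.7) in HFD-fed Lama4 AKO mice. Here too 5 of the 6 HFD values lay below every chow value. The log2 fold change was -1.05 ± 0.34 (SE; unadjusted p = 0.00518, adjusted p = 0.0345).
Of the 8 genes, 1 was called and 2 had an adjusted p of at most 0.05, against 4.12% and 22.1% of all genes tested. At an unadjusted p under 0.05 the count was 3 of 8, Insig1, Hmgcs1 and Srebf2, against 39.8% of all genes, a share close to that background. The median log2 fold change of the 8 was -0.41, and that of all genes was -0.0031. Without the 5 libraries, Insig1 (-1.91 ± 0.31, adjusted p = 0.000236) and Hmgcs1 (-1.18 ± 0.25, adjusted p = 0.00162) were both called, 2 of 8 against 15.7% of all genes, and they were also the 2 of 8 with an unadjusted p under 0.05, against 49.2%. The call of Insig1 with 24 libraries was narrow. It ended without chow-fed Lama4 AKO replicate 3 (-1.56, unadjusted p = 0.00139) or 4 (-1.56, 0.00128), without HFD-fed Lama4 AKO replicate 4 (-1.71, 0.00102) or 5 (-1.70, 0.00106), and by limma-voom (-1.53, 0.0014).

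The same comparison in Lama4 fl/fl mice gives the response of the control tissue. No gene of the 8 was called between diets when all 24 libraries were used, and the direction for Insig1 depended on the library set. Hmgcs1 met the call criteria with 19 libraries.
Hmgcs1 had a median of 371.4 CPM (300.4 to 670.8) on chow and 282.4 CPM (144.1 to 623.6) on HFD. The HFD values were split. Replicates 1, 2 and 5 had 144.1, 161.4 and 207.6 CPM, below every chow value, and replicates 3, 4 and 6 had 357.3, 623.6 and 523.0 CPM, within the chow range. With 24 libraries the log2 fold change was -0.31 ± 0.34 (SE; adjusted p = 0.80). With 19 libraries it was -1.37 ± 0.32 (unadjusted p = 0.000381, adjusted p = 0.00423), a call, and the ranges on chow and HFD did not overlap. That call rested on 3 HFD-fed mice and ended without replicate 1 (-1.26, unadjusted p = 0.00363) or 2 (-1.33, 0.00264) of them. The 3 libraries that remained in the HFD group had the 3 lowest sums of adipocyte markers of that group.
Insig1 had a median of 51.6 CPM (38.8 to 90.1) on chow and 68.9 CPM (26.9 to 176.5) on HFD. Its log2 fold change was 0.75 ± 0.41 (adjusted p = 0.60) with 24 libraries and -0.53 ± 0.37 (adjusted p = 0.30) with 19. The 2 highest HFD values, 176.5 and 170.4 CPM, were in replicates 4 and 6.
Lss, at 16.6 CPM (13.1 to 20.4) on chow and 24.1 CPM (11.1 to 28.7) on HFD, was the only one of the 8 with an unadjusted p under 0.05 with 24 libraries (0.48 ± 0.21, unadjusted p = 0.0322, adjusted p = 0.52), and with 19 it was 0.33 ± 0.28 (unadjusted p = 0.255). On HFD 5 of its 6 values exceeded every chow value, and the lowest of all, 11.1 CPM, was HFD-fed replicate 2. The count called was 0 of 8 by edgeR, limma-voom and DESeq2, against 0.173% of all genes by edgeR, and 1 of 8 had an unadjusted p under 0.05, against 9.01%. With 19 libraries 1 of 8 was called, Hmgcs1, against 11.8%, and 2 of 8 had an unadjusted p under 0.05, against 41.4%. Fdft1 values on HFD also lay below every chow value in the 19 libraries, with a log2 fold change of -0.69 ± 0.30 (adjusted p = 0.090), and it was not called.

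On chow, Lama4 AKO mice had more Insig1 and Srebf2 mRNA than Lama4 fl/fl mice in most animals, but with all 24 libraries no gene of the 8 was called. This comparison asked what loss of adipocyte LAMA4 does without a dietary load. The log2 fold change was above 0 for 7 of the 8 genes, the exception being Fdft1.
Insig1 had a median of 51.6 CPM (38.8 to 90.1) in Lama4 fl/fl and 127.0 CPM (46.7 to 211.3) in Lama4 AKO mice. In Lama4 AKO mice 4 of 6 values exceeded every Lama4 fl/fl value and the other 2 lay within their range. The log2 fold change was 1.24 ± 0.42 (SE; unadjusted p = 0.00637, adjusted p = 0.74). With 19 libraries it was 1.33 ± 0.32, which met the call criteria (unadjusted p = 0.00052) with an adjusted p of 0.32. That call ended by limma-voom on the same libraries (1.2, unadjusted p = 0.00155), and without Lama4 fl/fl replicate 1, 2, 5 or 6 or Lama4 AKO replicate 3 or 4 (1.16 to 1.31, unadjusted p between 0.0016 and 0.00218). Summed adipocyte markers had medians of 31810 CPM in Lama4 fl/fl and 35730 CPM in Lama4 AKO mice in these 10 libraries. The highest adipocyte marker sum, 51180 CPM in Lama4 fl/fl replicate 1, stood beside 38.8 CPM of Insig1, the lowest value of its group. This is 1 library, and within groups Insig1 rose with these markers (r = 0.79 over all 24 libraries and 0.49 over 19). Summed macrophage markers had medians of 6859 CPM in Lama4 fl/fl and 4037 CPM in Lama4 AKO mice in the same 10 libraries. The part of tissue makeup in this difference of Insig1 was not tested.
Srebf2 had a median of 27.4 CPM (23.3 to 33.8) in Lama4 fl/fl and 43.4 CPM (24.9 to 59.5) in Lama4 AKO mice. As for Insig1, 4 of 6 Lama4 AKO values exceeded every Lama4 fl/fl value. The log2 fold change was 0.57 ± 0.19 (unadjusted p = 0.0068, adjusted p = 0.74). With 19 libraries it was 0.55 ± 0.21 (adjusted p = 0.50).
Among the chow-fed Lama4 AKO mice, the values of Srebf2 and Insig1 went together in some animals only. Replicates 3 and 4 were high for both, with 209.1 and 211.3 CPM of Insig1 and 39.9 and 59.5 CPM of Srebf2. Replicates 5 and 6, the lowest for Insig1, had 48.2 and 46.8 CPM of Srebf2, and replicates 1 and 2, with 131.4 and 122.5 CPM of Insig1, had 24.9 and 27.0 CPM of Srebf2.
Lss was 0.50 ± 0.21 higher on the log2 scale in Lama4 AKO mice (unadjusted p = 0.0246, adjusted p = 0.82; 0.53 ± 0.24 and unadjusted p = 0.0447 with 19 libraries), and 5 of 6 values, between 21.0 and 29.3 CPM, lay above the highest Lama4 fl/fl value of 20.4 CPM. Hmgcs1, Sqle, Idi1 and Cyp51 had log2 fold changes between 0.05 and 0.40, and Fdft1 one of -0.20 ± 0.27. The count called was 0 of 8 by edgeR, limma-voom and DESeq2, against 0.113% of all genes, and 3 of 8 had an unadjusted p under 0.05, against 5.85%. With 19 libraries 1 of 8 was called, against 0.209%, and 3 of 8 had an unadjusted p under 0.05, against 8.5%.

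Between the genotypes on HFD no gene of the 8 was called. The log2 fold changes of 7 of the 8 were below 0 with 24 libraries and those of 5 of the 8 with 19, and 3 of the 5 libraries left out belong to this comparison.
Insig1 had a median of 68.9 CPM in Lama4 fl/fl and 35.3 CPM in Lama4 AKO mice, and every Lama4 AKO value lay within the Lama4 fl/fl range. The log2 fold change was -1.26 ± 0.42 (unadjusted p = 0.00591, adjusted p = 0.29) with 24 libraries and -0.06 ± 0.35 (adjusted p = 0.98) with 19. For Hmgcs1 the value turned from -0.64 ± 0.34 (adjusted p = 0.36) to 0.33 ± 0.30 (adjusted p = 0.76). None of the 8 was called by edgeR, limma-voom or DESeq2 with 24 libraries, against 0.173% of all genes, and 1 had an unadjusted p under 0.05, against 14.8%. With 19 libraries 0 of 8 were called, against 0.565%, and 0 of 8 had an unadjusted p under 0.05, against 11.1%. Sqle (0.0062 ± 0.23), Srebf2 (-0.04 ± 0.19) and Cyp51 (-0.17 ± 0.19) were near 0 with 24 libraries.

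The difference between the 2 diet responses, tested as the diet by genotype term, was largest among the 8 genes for Insig1. All 8 genes had a negative term, which means a lower HFD to chow ratio in Lama4 AKO than in Lama4 fl/fl mice, and 1 was called. For Insig1 it was -2.50 ± 0.59 (SE; unadjusted p = 0.000282, adjusted p = 0.22), 1 of 8 called against 0.386% of all genes. Lss (-0.86 ± 0.30, unadjusted p = 0.00791) and Srebf2 (-0.61 ± 0.27, unadjusted p = 0.0351) also had an unadjusted p under 0.05, making 3 of 8 against 15.6%, with adjusted p of 0.25 and 0.30. With 19 libraries Insig1 had a term of -1.39 ± 0.47 (unadjusted p = 0.00797, adjusted p = 0.22) and was not called, so that 0 of 8 were called against 0.68% of all genes, by edgeR and limma-voom, and 2 of 8 had an unadjusted p under 0.05, against 12.2%. The term of Lss was then -0.74 ± 0.36 (unadjusted p = 0.0563) and that of Srebf2 -0.81 ± 0.31 (unadjusted p = 0.0154). The terms of Hmgcs1 and Fdft1 turned from -0.74 and -0.23 to 0.19 and 0.22. By limma-voom with 24 libraries Insig1 had -2.01 (unadjusted p = 0.00254), which was not a call. This comparison shares all its libraries with the 4 above.

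**Figure D2:**
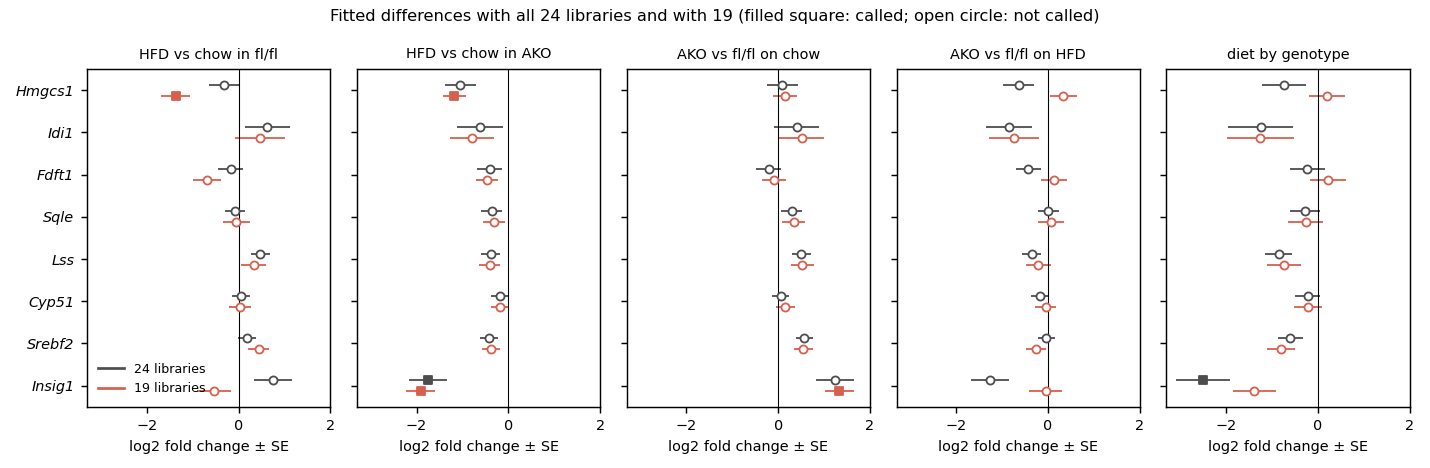
Fitted log2 fold changes (x axis, ± SE) of the 8 genes in the 5 comparisons, with all 24 libraries (grey) and without the 5 (red); filled squares were called. In the diet comparison of Lama4 AKO mice both library sets gave negative values for all 8 genes, and Hmgcs1 and Insig1 changed side of 0 or moved most between the sets wherever the HFD-fed Lama4 fl/fl group entered.

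The other measured genes of the pathway were 24, made up of 7 further genes of the mevalonate arm, 9 of the steps from lanosterol to cholesterol, 5 for SREBP processing and 3 SREBP2 targets outside synthesis. In Lama4 AKO mice on HFD against chow, 3 of the 24 were called, 2 lower and 1 higher, against 4.12% of all genes. Hsd17b7, an enzyme of the late steps, was lower at -1.08 ± 0.26 (adjusted p = 0.0167), and Mbtps2, the site-2 protease that releases SREBPs from the membrane, was higher at 0.84 ± 0.22 (adjusted p = 0.019). With 19 libraries both were called (-1.2 ± 0.23 and 0.96 ± 0.19). With 24, both calls ended without chow-fed Lama4 AKO replicate 3 or 4 or HFD-fed Lama4 AKO replicate 5, that of Hsd17b7 also by limma-voom (-0.99, unadjusted p = 0.00169), and that of Mbtps2 also without chow-fed Lama4 AKO replicate 1, 2 or 6, HFD-fed Lama4 fl/fl replicate 3 or 5 or HFD-fed Lama4 AKO replicate 1, 2 or 4, and with replicate number as a block (0.84, unadjusted p = 0.0024).
Hsd17b7 fell from a median of 24.8 CPM (10.9 to 36.4) to 10.99 CPM (8.93 to 13.5). Mbtps2 went the other way, from 9.41 CPM (6.51 to 13.3) to 16.3 CPM (13.2 to 24.2).
The synthetic arms and the processing genes differed in sign. In the mevalonate arm 6 of 7 log2 fold changes were below 0 (median -0.67), with 0 called and 4 at an adjusted p of at most 0.05. From lanosterol onward 8 of 9 were below 0 (median -0.86), with 2 called and 5 at an adjusted p of at most 0.05. Of the processing genes 4 of 5 were above 0 (median 0.26), with 1 called and 2 at an adjusted p of at most 0.05. Of the 3 targets outside synthesis 0 were called by edgeR, and 0 had an unadjusted p under 0.05.
Over the 24 genes, 11 had an adjusted p of at most 0.05, against 22.1% of all genes. With 19 libraries, 10 of the 24 were called, 4 of the mevalonate arm, 5 of the late steps and Mbtps2, against 15.7% of all genes.

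**Figure D3:**
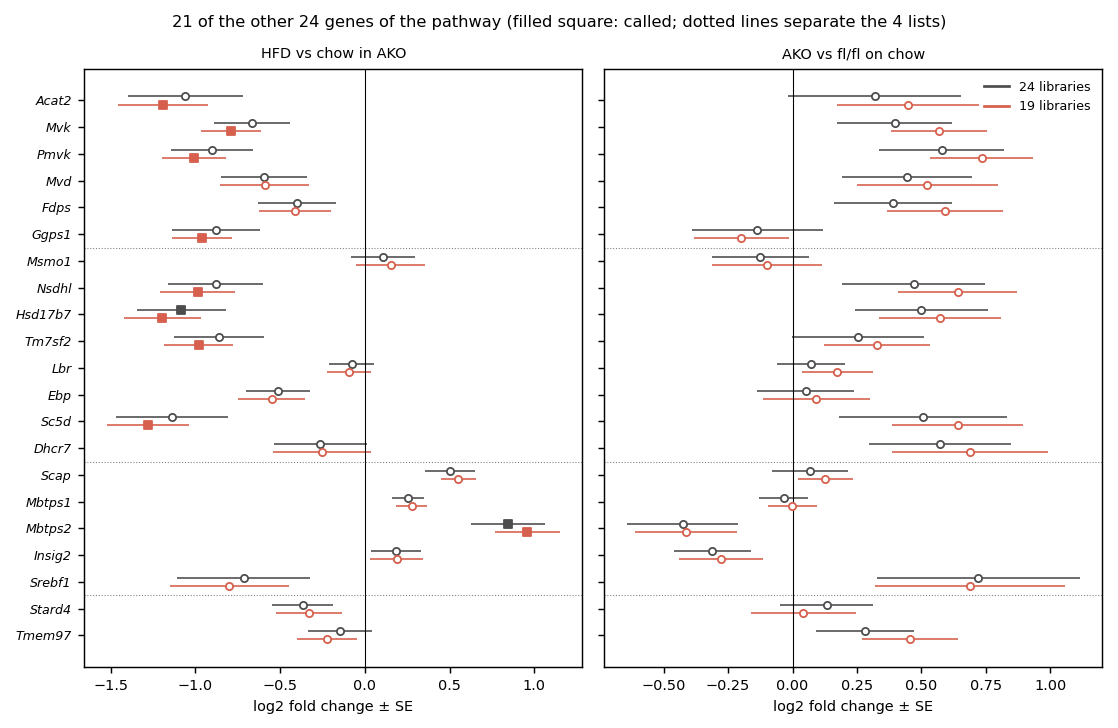
Log2 fold changes (x axis, ± SE) of 21 of the 24 other pathway genes in Lama4 AKO mice on HFD against chow (left) and in Lama4 AKO against Lama4 fl/fl mice on chow (right), with 24 (grey) and 19 (red) libraries; filled squares were called. On the left 16 of these 21 lie below 0 with 24 libraries, and on the right 16 of 21 lie above 0 with 0 called.

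In the other comparisons these genes gave few calls. Between diets in Lama4 fl/fl mice 0 of 24 were called by edgeR, limma-voom and DESeq2, against 0.173% of all genes by edgeR. The median was 0.12, and 1 had an unadjusted p under 0.05 (9.01% of all genes), which became 9 without the 5 libraries (41.4%). Between genotypes on chow 0 of 24 were called by each of the 3 tools, against 0.113% of all genes by edgeR. The median was 0.30, and 5 had an unadjusted p under 0.05 (5.85% of all genes), which became 10 without the 5 libraries (8.5%). The lowest p of the mevalonate arm was that of Pmvk, its second kinase (0.58 ± 0.24, unadjusted p = 0.025, adjusted p = 0.82), and the lowest of the processing genes that of Insig2, the second INSIG gene (-0.31 ± 0.15, unadjusted p = 0.048, adjusted p = 0.85). Insig2 had the opposite sign to Insig1. On HFD 0 of 24 were called between genotypes by each of the 3 tools, against 0.173% of all genes by edgeR. The median was -0.26, and 7 had an unadjusted p under 0.05 (14.8% of all genes), which became 1 without the 5 libraries (11.1%). The diet by genotype term was called by edgeR for 1 of 24, Pmvk (-1.29 ± 0.34, unadjusted p = 0.000931, adjusted p = 0.22), against 0.386% of all genes. By limma-voom, and with replicate number as a block, 0 of 24 were called. Pmvk had medians of 40.7 CPM in chow-fed Lama4 fl/fl, 65.1 in chow-fed Lama4 AKO, 40.3 in HFD-fed Lama4 fl/fl and 31.6 in HFD-fed Lama4 AKO mice. With 19 libraries its term was -1.01 ± 0.29 and not called.

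Within groups, the 8 genes did not move as a single block from mouse to mouse. The median Pearson correlation over their 28 pairs, computed on deviations of log2 CPM from the group means in 24 libraries, was 0.25. Hmgcs1 and Insig1 rose and fell together (r = 0.85, Spearman's rho = 0.82). The permutation p within groups was 0.00014 for r and 0.00033 for rho, or 0.00392 and 0.00742 after Benjamini-Hochberg adjustment over the 28 pairs, and r was 0.79 without the 2 libraries farthest from the median of Hmgcs1 and 0.62 in the 19 libraries. Hmgcs1 and Fdft1 were also correlated (r = 0.71, rho = 0.65, permutation p = 0.00192 and 0.00405, adjusted 0.0134 and 0.0189; r = 0.59 without 2 libraries and 0.54 in 19).
A different pair was Sqle and Cyp51, with r = 0.76 and rho = 0.70 (permutation p = 0.00053 for each, adjusted 0.00513 and 0.00742). The value of r was 0.63 without 2 libraries and 0.75 in the 19. Neither of these genes followed Hmgcs1, with r of -0.11 for Sqle and 0.08 for Cyp51 (permutation p = 0.555 and 0.692).
Srebf2, the gene of the transcription factor, ran against 2 of the enzymes. It was lower where Fdft1 was higher (r = -0.71, rho = -0.70, permutation p = 0.00055 and 0.00106, adjusted 0.00513 and 0.00989; r = -0.69 without 2 libraries and -0.65 in 19) and where Hmgcs1 was higher (r = -0.62, rho = -0.64, permutation p = 0.00518 and 0.00277, adjusted 0.0207 and 0.0155; r = -0.59 without 2 and -0.44 in 19). Lss was correlated with Insig1 (r = 0.59, rho = 0.61, permutation p = 0.00513 and 0.00164, adjusted 0.0207 and 0.0115; r = 0.46 without 2 and 0.61 in 19) and with Cyp51 (r = 0.53, rho = 0.57, permutation p = 0.00291 and 0.0054, adjusted 0.0163 and 0.0216; r = 0.46 without 2 and 0.52 in 19). The other 21 pairs did not pass an adjusted p of 0.05 for r. Idi1, at 1 to 27 reads, was in none of the pairs that passed.

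The relation of the 8 genes to the summed adipocyte and macrophage markers, by the same deviations from group means, differed between genes. Hmgcs1 tracked the summed adipocyte markers most closely (r = 0.95, rho = 0.93, permutation p = 1e-05 for each, the smallest that 100000 permutations can give, adjusted 8e-05 over 16 relations; r = 0.93 without 2 libraries and 0.88 in 19). Insig1 (r = 0.79, rho = 0.77, permutation p = 0.00025 and 0.00061, adjusted 0.00104 and 0.00221; r = 0.71 without 2 and 0.49 in 19) and Fdft1 (r = 0.77, rho = 0.72, permutation p = 0.00026 and 0.00082, adjusted 0.00104 and 0.00221; r = 0.68 without 2 and 0.70 in 19) also rose with them. Srebf2 fell as they rose (r = -0.69, rho = -0.75, permutation p = 0.00075 and 0.00014, adjusted 0.002 and 0.000747; r = -0.68 without 2 and -0.56 in 19). For Sqle and Cyp51 no relation was detected (r = -0.16 and 0.02, permutation p = 0.37 and 0.918). Against the macrophage markers the signs were reversed, with r of -0.88 for Hmgcs1, -0.66 for Insig1, -0.70 for Fdft1 and 0.60 for Srebf2 (permutation p between 1e-05 and 0.00358, adjusted at most 0.00716). In the 19 libraries these were -0.78, -0.29, -0.59 and 0.41. What part of the covariation of the 8 genes goes with the makeup of the tissue was not tested.

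**Figure D4:**
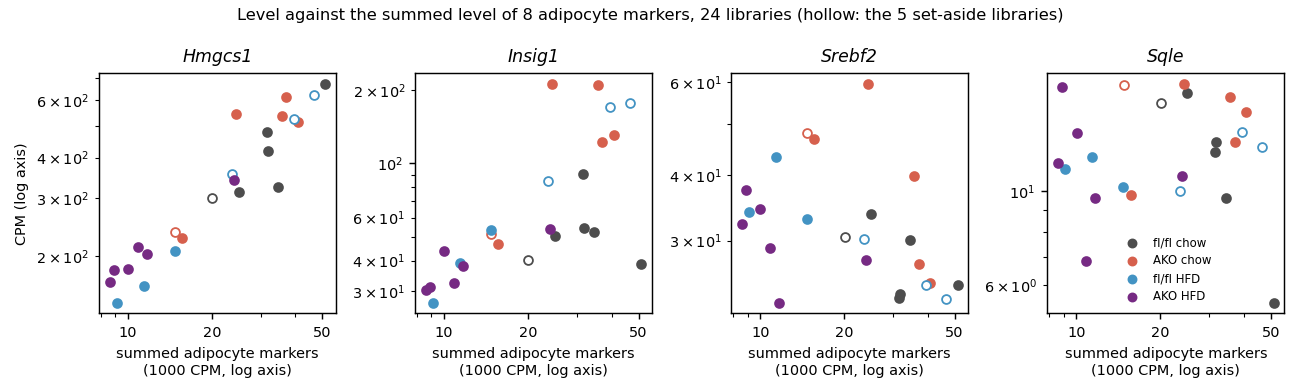
CPM of Hmgcs1, Insig1, Srebf2 and Sqle (y axes, log) against the summed CPM of 8 adipocyte markers (x axis, in units of 1000 CPM, log) in 24 libraries, coloured by group; hollow points are the 5 libraries inferred to have been set aside. Hmgcs1 forms a single rising band over all 4 groups. Insig1 in 4 chow-fed Lama4 AKO and 2 HFD-fed Lama4 fl/fl mice lies above every value of chow-fed Lama4 fl/fl mice.

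**Figure D5:**
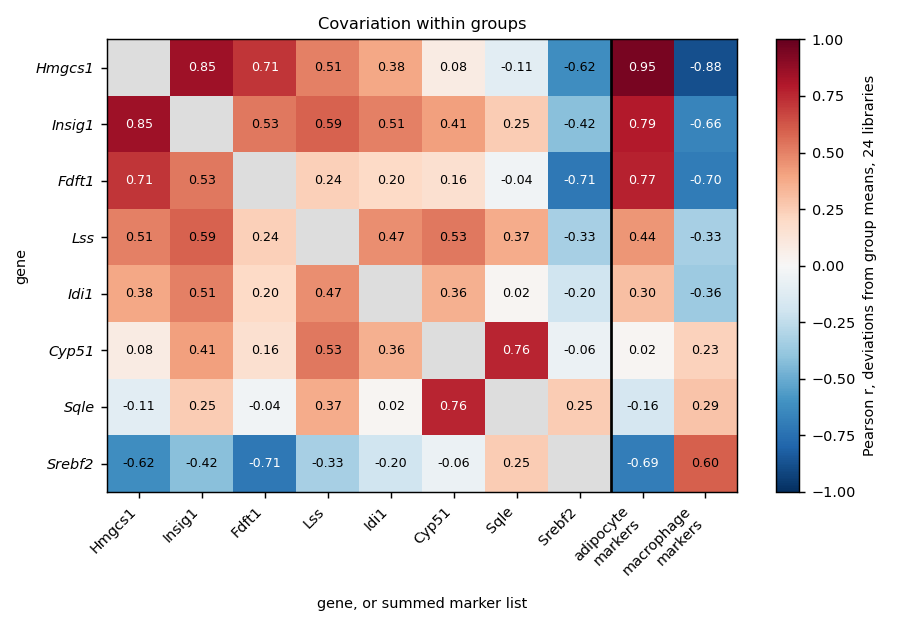
Pearson r (colour and number) between pairs of the 8 genes, and between each gene and the summed adipocyte and macrophage markers, over 24 libraries after subtraction of group means; grey cells are a gene with itself. Hmgcs1, Insig1 and Fdft1 form a block that follows the adipocyte markers, Cyp51 and Sqle form a pair with no such relation, and Srebf2 is negative in 7 of its 9 columns, all but those of Sqle and the macrophage markers.

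The genes nearest to each of the 8 were found by the same correlation over all 15020 genes and 24 libraries. For Sqle, Msmo1 was in position 1 (r = 0.82) and Cyp51 in position 3 (0.76). Msmo1 encodes the sterol oxidase that acts after CYP51 and is in the pathway lists. For Cyp51 the nearest 3 were Vma21 (0.83), Fdps (0.81) and Degs1 (0.80), of which Fdps, the farnesyl diphosphate synthase, is in the lists, and Sqle was in position 11. For Hmgcs1 they were Fads3 (0.97), Pcolce2 (0.96) and Prkar2b (0.96), none of them in the lists. Insig1 was nearest to Rrad (0.95), Fgf13 (0.91) and Serpinh1 (0.90), with Hmgcs1 in position 47. Srebf2 was nearest to Zbtb34 (0.88), Mroh1 and Ap1b1 (both 0.82), Fdft1 to Gatd3a (0.89), Gm15551 and Fggy (both 0.88), Lss to Echdc1 (0.80), Hydin (0.77) and Cdkn2b (0.76), and Idi1 to Olfml3 (0.78), Abcc9 and Tnk1 (both 0.73). Another of the 8 genes was within the nearest 1% of all genes for 3 of the 8, Sqle, Cyp51 and Insig1, and for 2 of the 8 without the 5 libraries.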

How the data were processed

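Epididymal fat RNA from 24 mice was sequenced as 3′-end QuantSeq libraries (50-base forward reads), 1 per mouse. Per the labels and the study's methods, the authors mapped reads to GRCm38/mm10 with the Lexogen QuantSeq pipeline and counted them per gene; the deposited count table holds these raw counts. The authors also deposited the same counts divided by DESeq2 size factors, a normalized signal (R 4.0.3 and DESeq2 1.30 in the submitters' processing notes), of which the gene symbols were used. Whether counting used strand is not given in the sources used here.

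From the counts, TMM-normalized CPM were computed and genes reaching 1 CPM in 3 or more libraries tested with edgeR 4.0.16 (quasi-likelihood, R 4.3.3), 1 coefficient per group, all 24 libraries in 1 fit. A gene was called by the study's criteria, a fold change reaching 1.5, an unadjusted p of 0.001 or lower and an average of 2 CPM or more in the group with the higher level; p-values adjusted by Benjamini-Hochberg over all genes are given beside. Tests are two-sided. The study used limma-voom after removing outliers, not named in the sources used here, so limma-voom 3.58.1, DESeq2 1.42.0 and a set without the 5 inferred libraries were alternatives, with other size factors, filters, call rules, a replicate block and each library left out. Counts were also simulated from the mean of each gene over all 24 libraries and their library sizes, with changes put into the HFD-fed Lama4 AKO group. Changed genes were drawn only above a minimum mean level, which leaves out genes as low as Idi1. In the simulated diet comparison of Lama4 AKO mice (14788 genes tested), edgeR called 74 of 100 genes changed 2-fold and 98 of 100 changed 4-fold. In that of Lama4 fl/fl mice, where no gene was changed, it called 10 of 14788. Genes were drawn independently of each other, so variation that real genes share between libraries is not in these rates. Correlations used log2 CPM with a prior count of 2, centred by group, with 100000 permutations within groups.

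The 8 genes, the pathway and marker lists and the 5 libraries were chosen with earlier results of these data known. Named beyond the 8 were other pathway genes called in at least 1 comparison or with the lowest p of their list between genotypes on chow, the 3 genes nearest to each of the 8, and Lama4; any other is marked where it appears. Each library is 1 mouse, so p-values measure the spread between mice. Some genes of the pathway lists are not reported here by name, though counts and medians over the lists include them.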

Additional observations from a re-analysis of the deposited data

Results flagged for a closer look

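In 3 of 32 sets of 6 mice checked (8 genes in 4 groups), 1 library stood apart by Dixon's criterion, which chance alone meets in about 1 of 20 sets. Hmgcs1 was highest at 342.7 CPM in replicate 6 of the HFD-fed Lama4 AKO mice, which also had the highest sum of adipocyte markers of that group, 23970 CPM. Lss was lowest at 11.06 CPM in replicate 2 of the HFD-fed Lama4 fl/fl mice. Cyp51 was lowest at 26.8 CPM in chow-fed Lama4 fl/fl replicate 1, the library with the highest sum of adipocyte markers of all 24, 51180 CPM; Sqle was lowest there too, at 5.463 CPM.

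The diet by genotype term met the call criteria for Insig1 (-2.503 on the log2 scale) and Pmvk (-1.294) with 24 libraries. Both had an adjusted p of 0.22 by edgeR's quasi-likelihood test. By limma-voom on the same libraries neither was called. Without the 5 libraries neither term met the call criteria.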

How the results depend on the processing

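Without the 5 libraries, members called were 1, 2, 1, 0 and 0 (HFD against chow in Lama4 fl/fl and in Lama4 AKO, genotype on chow, genotype on HFD, diet by genotype) against 0, 1, 0, 0 and 1 with all 24, and other pathway genes called were 2, 10, 0, 0 and 0 against 0, 3, 0, 0 and 1. By limma-voom without the 5 libraries the counts in the same order were 1, 2, 0, 0 and 0 and 2, 10, 0, 0 and 0, so the call of Insig1 between genotypes on chow was lost. With 24 libraries, limma-voom called 0 members in the Lama4 AKO diet comparison and 0 for diet by genotype, and 1 and 0 other genes. Among all 15020 genes it called 604 and 54. DESeq2 called 6 other genes in Lama4 AKO mice, against 1315 of all 15020. Sample quality weights gave 2 and 10 calls in Lama4 AKO mice, against 3594 of all 15020 genes. They gave 1 and 1 between genotypes on HFD, against 525, and 2 and 6 for diet by genotype, against 1358. At an adjusted p of at most 0.05 the Lama4 AKO diet comparison had 2 and 11, against 3315 of all 15020 genes. Diet by genotype had 0 and 0. The same rule without the 5 libraries was added after the data were seen. It gave 1 and 3 in Lama4 fl/fl, against 4311 of all 14863 genes, and 2 and 13 in Lama4 AKO, against 5985. For diet by genotype it gave 0 and 0.

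Directions turned without the 5 libraries (edgeR, then limma-voom) for Insig1 between diets in Lama4 fl/fl (-0.53, -0.52), for genotype on HFD in Hmgcs1 (0.33, 0.30) and Fdft1 (0.13, 0.15), and for diet by genotype in Hmgcs1 (0.19, 0.19) and Fdft1 (0.22, 0.29). The median of the 8 genes between genotypes on HFD moved from -0.39 to -0.056 and -0.047. Values near 0 also changed sign. Sqle between genotypes on HFD gave -0.048 by limma-voom, -0.015 by DESeq2 and with RLE size factors, -0.0087 without the filter, -0.031 with only the groups compared, and -0.047 with quality weights; Sqle between diets in Lama4 fl/fl gave 0.018 by limma-voom without the 5 libraries. Quality weights gave -0.023 for Cyp51 between diets in Lama4 fl/fl and 0.053 for Srebf2 between genotypes on HFD. The cause was not tested.

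With the replicate block, Sqle between genotypes on HFD was -0.024, and other genes called for diet by genotype were 0; Insig1 kept its calls (-1.67 and -2.26). What a replicate number shared between groups stands for is not in the labels. Between groups, same-number libraries had a median r of 0.0011 over 36 pairs (15 above 0.1). Different-number libraries had one of -0.010 over 180 pairs (58 above 0.1). These values do not settle whether the number pairs mice.

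Leaving out each of the 24 libraries, and each of the 19, gave these lowest and highest values. Members called were 0 to 1 (Lama4 fl/fl diet), 0 to 2 (Lama4 AKO diet), 0 to 1 (genotype on chow) and 0 to 2 (diet by genotype). Other genes called were 0 to 4, 0 to 11, 0 to 6 and 0 to 2 in these, and 0 to 1 for genotype on HFD. With 24 libraries, the call of Pmvk for diet by genotype was narrow, and other genes called in Lama4 AKO mice were 0 without chow-fed Lama4 AKO replicate 3 or 4 or HFD-fed Lama4 AKO replicate 5, 1 without chow-fed replicate 2 or HFD-fed replicate 1, 2 or 4, 5 without chow-fed or HFD-fed replicate 6, and 7 without chow-fed replicate 5. With 19 libraries, the call of Hmgcs1 between diets in Lama4 fl/fl ended without HFD-fed replicate 1 or 2. Median log2 fold changes ranged from -0.51 to 0.047 (genotype on HFD) and from -0.18 to 0.18 (Lama4 fl/fl diet). The sign turned in at least 1 of these fits for genotype on HFD in Cyp51 (-0.28 to 0.057), Fdft1 (-0.58 to 0.35), Hmgcs1 (-0.83 to 0.49), Insig1 (-1.45 to 0.21), Lss (-0.52 to 0.038), Sqle (-0.17 to 0.14) and Srebf2 (-0.37 to 0.077), for genotype on chow in Cyp51 (-0.098 to 0.25), Fdft1 (-0.45 to 0.056) and Hmgcs1 (-0.022 to 0.34), for diet in Lama4 fl/fl in Cyp51 (-0.15 to 0.15), Insig1 (-0.79 to 0.96) and Sqle (-0.22 to 0.14), and for diet by genotype in Fdft1 (-0.37 to 0.49) and Hmgcs1 (-0.94 to 0.35). In Lama4 AKO mice between diets, no gene of the 8 turned sign in any fit. Depth limits Idi1, with 1 to 27 reads per library. It could not be called under the 2 CPM criterion, and what size of difference in it could be detected was not tested.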
